A study of Arabidopsis thaliana with 12 samples.

Results

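The 60 genes described here are those whose mean intensity increased most, as a ratio, from dim to bright blue light among the dimmer single-gene probes the rule chose from. They were taken from 692 probes that the platform annotation gives to a single gene. The 60 probes with the highest mean at 20 µE were set aside, the faintest of them at a mean of 1.62 units. Set aside as well were 11 named genes, 1 of which was among those 60 probes. Some of these 11 rose by ratios within the range of the genes kept. From the 622 probes left, the 60 with the highest log2 ratio of the means, 200 µE over 20 µE with 0.1 unit added to both, were kept. They belong to 60 genes and make up 8.67% of the single-gene probes. Because the light contrast chose these genes, their differences between the light levels are given as a description. A fit over all features also covers them, and nothing is read from how many of them it calls.

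The samples were total RNA of wild-type Arabidopsis thaliana of the Landsberg ecotype, kept for 48 h in blue light of either 20 µE (6 samples) or 200 µE (6 samples). µE is the customary shorthand for a photon flux. Each sample is 1 column of intensities in arbitrary units, and samples are numbered 1 to 6 at both light levels. The labels state neither the tissue nor the age of the plants, and do not say how many plants made up a sample or whether samples came from separate plants.

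Plants sense blue light through cryptochromes, which act mainly on gene expression in the nucleus, and phototropins, which steer growth and chloroplast movement. Blue light also drives photosynthesis, so a brighter field changes both the light signal and the energy supply. The gene tables give a name beyond the locus number to 5 of the 60 genes. These are PRA1.B6 and PRA1.B3, prenylated Rab acceptor proteins of the membrane traffic system, IAA31, a nuclear protein of the Aux/IAA family that represses auxin responses, ILA (ILITHYIA), a large protein of repeated helices linked to translation and immunity, and DI21, named after a transcript induced by drought. For the other 55 genes no role is given in the tables, and none is stated here.

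In the whole table, intensity shifted downwards at 200 µE. The median over all 3439 probes lay between 0.401 and 0.574 units in the 20 µE samples and between 0.171 and 0.218 in the 200 µE samples, while column means stayed between 0.814 and 1.04. Values listed at 0 made up 12.4% to 18.3% of a column. A ratio above 1 in deposited units was therefore uncommon: of the 622 probes the 60 were chosen from, 102 had a higher mean at 200 µE (16.4%), and the median log2 ratio was -0.80. Whether a difference reflects fewer cells of a type or less RNA per cell cannot be told apart in such samples. None of the 32 marker genes of leaf photosynthesis, seed, root, senescence, light signalling and stress had a probe of its own, so the tissue was not checked. Samples 1 and 2, 3 and 4, and 5 and 6 of a light level deviated from their group mean together, and each such couple is averaged for the means ± SD below (SD over 3 couple means).

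Over the 60 genes the median log2 ratio was 0.73, from 3.45 down to 0.20. Their means ranged from 0 to 1.56 units at 20 µE (median 0.516) and from 0.0229 to 5.72 units at 200 µE (median 1.01). At 20 µE these genes were ordinary members of the pool, whose median was 0.489, whereas at 200 µE the pool's median was 0.153. Of the 60 probes of the pool that were brightest at 20 µE, 10 are among these genes, against 37 of the 60 brightest at 200 µE. Such shifts in the order of brightness follow from the choice of genes, and nothing is read from them. The ratio was at least 2 in 26 genes and at least 4 in 4, and 3 further genes were listed at 0 in all 20 µE samples and have no ratio.

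**Figure D1:**
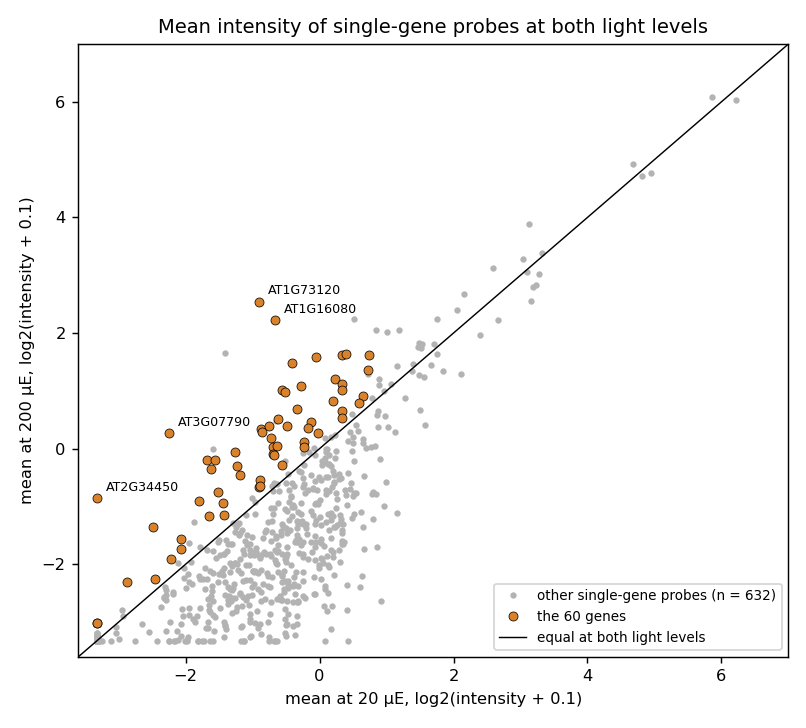
Mean intensity at 200 µE against that at 20 µE for all 692 single-gene probes, each axis as log2(intensity + 0.1), with the 60 genes in orange and the other 632 probes in grey. Most grey points lie below the line of equal intensity, and AT1G73120 and AT1G16080 lie well above it.

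AT1G73120 headed the list. Its values at 20 µE ran from 0.185 to 0.640 units (median 0.497), and those at 200 µE from 4.26 to 7.78 (median 5.22). The lowest bright-light sample was thus several times the highest dim-light sample. The means, 0.433 ± 0.201 and 5.72 ± 1.77 units, stand in a ratio of 13.2. In the pool of 622 probes this gene moved from place 335 by brightness at 20 µE to place 1 at 200 µE. At 200 µE samples 1 and 2 gave 7.78 and 7.60 units, samples 3 and 4 gave 5.21 and 5.23, and samples 5 and 6 gave 4.27 and 4.26, so that the couples differed far more than the samples within them.

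AT1G16080 was second, at 0.394 to 0.770 units (median 0.438) in dim light and 2.26 to 6.48 (median 5.03) in bright light. Its mean of 4.56 ± 2.1 units was 8.59 times that at 20 µE (0.531 ± 0.190), and it moved from place 285 to place 2 in the pool. The groups did not overlap, but samples 5 and 6 at 200 µE, at 2.29 and 2.26 units, lay far under the other 4. AT3G07790, next in order, was faint in dim light, at 0.0882 to 0.135 units (median 0.108), and reached 0.901 to 1.32 (median 1.12). Its ratio of 10.03 came with little spread at either level (0.111 ± 0.0203 and 1.11 ± 0.0863 units).

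AT2G34450, next, owed its place to 1 sample. It was listed at 0 in all 6 samples at 20 µE and in samples 1 to 4 at 200 µE, and it measured 0.0742 units in sample 5 and 2.66 in sample 6. Without sample 6 its log2 ratio dropped from 2.47 to 0.20 and it was no longer among the 60. No ratio of intensities is given for it.

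AT1G18290 measured 0.406 to 0.890 units (median 0.650) at 20 µE and 2.32 to 3.31 (median 2.59) at 200 µE, a ratio of 4.14. AT2G28540 went from 0.401 to 0.736 units (median 0.606) to 1.10 to 2.85 (median 1.88), with the lowest bright-light values in samples 5 and 6. AT5G36470 measured 0.139 to 0.279 units (median 0.225) and 0.528 to 1.05 (median 0.790). The groups of all 3 genes were separate. AT2G21530 measured 0.221 to 1.05 units (median 0.625) and 1.18 to 2.34 (median 1.98), and AT2G38070 0.181 to 0.334 (median 0.209) and 0.437 to 1.08 (median 0.829). For AT5G55570 the values were 0.507 to 1.05 units (median 0.637) and 1.30 to 2.69 (median 2.03). These 3 were separate too. AT3G52070, at 0.685 to 1.62 units (median 1.16) and 2.14 to 3.73 (median 2.96), was brighter than these at 20 µE.

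Among the genes with the highest mean at 200 µE were 2 that stood lower in the ranking. AT1G07970 measured 0.910 to 1.62 units (median 1.10) at 20 µE and 1.67 to 4.44 (median 3.07) at 200 µE. The groups came within 0.0510 units of each other, and samples 5 and 6 at 200 µE (1.67 and 1.70) lay far under samples 1 and 2 (4.12 and 4.44). AT1G13990 was the brightest of the 60 in dim light, at 1.38 to 1.74 units (median 1.55), and measured 2.32 to 3.43 (median 3.11) at 200 µE, a ratio of 1.90 with separate groups.

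**Figure D2:**
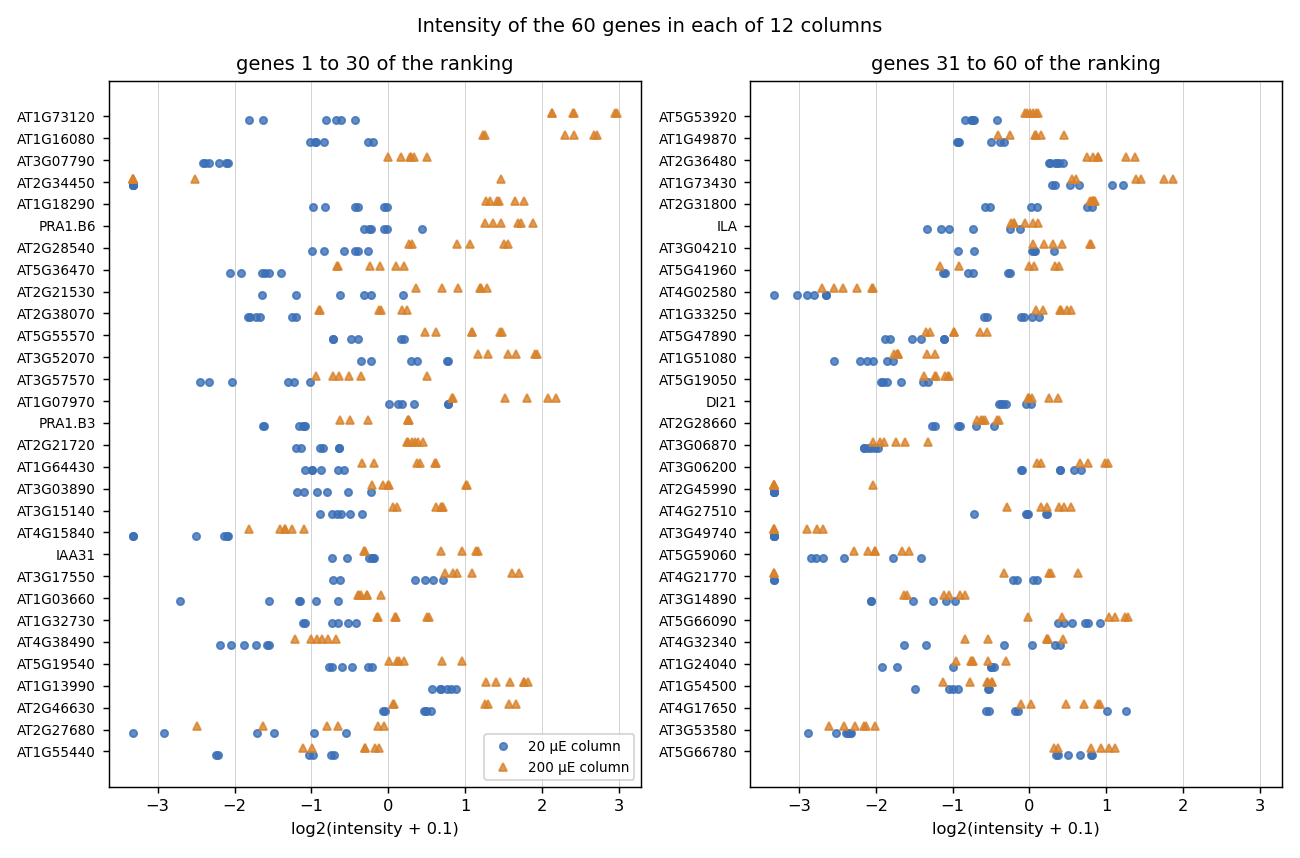
Intensity of the 60 genes in each of the 12 samples as log2(intensity + 0.1), in order of the log2 ratio of the means, with blue circles for the 6 samples at 20 µE and orange triangles for the 6 at 200 µE. The groups are apart for 19 of the first 20 genes and for 1 of the last 20; AT2G34450 shows a single high sample.

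Both Rab acceptor genes were higher in all bright-light samples than in any dim-light sample. PRA1.B6 measured 0.70 to 1.25 units (median 0.806) at 20 µE and 2.29 to 3.59 (median 2.89) at 200 µE, means of 0.867 ± 0.179 and 2.89 ± 0.488 units. Sample 6 was the highest of the dim-light samples. PRA1.B3 was fainter, at 0.223 to 0.373 units (median 0.355) and 0.546 to 1.10 (median 0.913), means of 0.317 ± 0.0446 and 0.863 ± 0.265. The ratios were 3.33 and 2.73. Proteins of this family sit in membranes of the secretory pathway and bind small GTPases of the Rab type that carry a lipid anchor. They were the only members of the family with a probe naming 1 gene. Of the 4 probes that name several PRA1 genes, all had a lower mean at 200 µE in deposited units, with log2 ratios between -1.67 and -0.84. That was the usual direction in these units. In the pool of single-gene probes the median log2 ratio was -0.80, and 16.4% had a higher mean at 200 µE. The lower means of these 4 probes are therefore not read as a trait of the family.

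IAA31 split by couple. At 20 µE it measured 0.503 to 0.776 units (median 0.751), and at 200 µE samples 1 to 4 gave 1.51, 1.84, 2.1 and 2.15 units, while samples 5 and 6 gave 0.703 and 0.710. The last 2 values lie within the dim-light range, so that the groups overlapped although the means were 0.690 ± 0.126 and 1.5 ± 0.724 units. In that couple the 20 µE samples were lowest as well, at a mean of 0.545 units against 0.769 and 0.757, and the couple's own log2 ratio was 0.32, against 1.03 and 1.38 in the others.

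ILA measured 0.297 to 0.820 units (median 0.443) at 20 µE and 0.749 to 0.976 (median 0.818) at 200 µE. The overlap came from 1 dim-light sample, sample 4, at 0.820 units. The couple of samples 3 and 4 had means of 0.780 units in dim and 0.761 in bright light. In the other couples the log2 ratio was 0.75 and 1.32. DI21 had a small difference, from 0.658 to 0.912 units (median 0.696) to 0.887 to 1.19 (median 0.912), but a regular one: the log2 ratio was 0.34, 0.38 and 0.32 in the 3 couples. Its groups overlapped by 0.0253 units.

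Down the ranking the differences shrank and the samples overlapped more. In the first 20 genes the ratio of the means ran from 2.40 to 13.2 (median 3.11, 19 genes with a ratio) and 19 had separate groups. In the next 20 it ran from 1.5 to 2.78 (median 1.82) with 8 separate, and in the last 20 from 1.16 to 1.72 (median 1.28, 18 genes) with 1 separate. In all, 28 of the 60 had every bright-light sample above every dim-light sample, against 5.35% of the 692 single-gene probes, a share that the choice of genes makes uninformative. The remaining first-20 genes, all separate, were AT3G57570, AT2G21720, AT1G64430, AT3G03890, AT3G15140 and AT4G15840. AT4G15840 was listed at 0 in samples 5 and 6 at 20 µE and measured 0.0761 to 0.135 units in the other 4, against 0.185 to 0.368 at 200 µE. In the middle of the list, AT3G17550, AT1G03660, AT1G32730, AT4G38490, AT5G19540, AT5G53920 and AT2G36480 were separate besides AT1G13990. In the last 20 only AT1G51080 was, by 0.195 to 0.327 units against 0.0719 to 0.193.

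The other overlapping genes of the middle group were AT2G46630, AT2G27680, AT1G55440, AT1G49870, AT1G73430, AT2G31800, AT3G04210, AT5G41960, AT4G02580 and AT1G33250. AT2G46630, AT1G55440, AT1G73430 and AT5G41960 resembled IAA31 in that samples 1 to 4 at 200 µE exceeded all dim-light samples and samples 5 and 6 did not. AT5G47890 and AT5G66090 of the last 20 did so as well, which makes 7 of the 60 genes. The share of other probes with this pattern was not counted, so it is not called a trait of the list. Samples 5 and 6 also held the lowest couple mean at 200 µE in 50.8% of the 386 other probes of the pool above 0 in all samples. In samples 5 and 6 AT2G46630 measured 0.942 and 0.952 units, and AT5G41960 0.345 and 0.429. AT2G31800 had the most even bright-light values of the list, 1.62 to 1.70 units, while its dim-light values spread from 0.572 to 1.65.

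The end of the list was not set apart from the genes just below it. AT4G17650, AT3G53580 and AT5G66780, the last 3 taken, had log2 ratios of 0.21, 0.20 and 0.20. AT3G19120, AT3G56010 and AT4G24840, the first 3 left out, had 0.17, 0.16 and 0.16. AT4G17650 measured 0.577 to 2.30 units at 20 µE (median 0.788) and 0.823 to 1.79 at 200 µE (median 1.41), and no bright-light sample exceeded the highest dim-light one. AT5G66780 measured 1.17 to 1.66 units (median 1.40) and 1.14 to 2.07 (median 1.73), and AT3G53580 0.0360 to 0.0990 (median 0.0927) and 0.0638 to 0.147 (median 0.116).

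The widest overlaps after that of AT4G17650 belonged to AT4G21770 and AT5G66090. AT4G21770 was listed at 0 in samples 5 and 6 at both light levels, and measured 0.759 to 0.969 units in the other 4 at 20 µE and 0.698 to 1.45 at 200 µE. AT5G66090 measured 1.20 to 1.79 units (median 1.46) and 0.883 to 2.34 (median 2.01), with its lowest bright-light value in sample 6. Besides AT2G34450, AT2G45990 and AT3G49740 were listed at 0 throughout the dim-light samples. AT2G45990 had 1 value above 0, 0.145 units in sample 6 at 200 µE, and AT3G49740 had 3, from 0.0347 to 0.0557 units. The other overlapping genes of the last 20 were AT5G47890, AT5G19050, AT2G28660, AT3G06870, AT3G06200, AT4G27510, AT5G59060, AT3G14890, AT4G32340, AT1G24040 and AT1G54500.

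Of the 60 genes, 53 were above 0 in all 12 samples. Among these 53 the coefficient of variation over 6 samples had a median of 0.279 at 20 µE (0.0530 to 0.831) and 0.274 at 200 µE (0.0167 to 0.477). The medians over the 386 other probes of the pool with no value at 0 were 0.300 and 0.270. The spread of the 53 genes thus lay near that of the pool at both levels. At 200 µE the spread was smallest in AT2G31800, AT5G53920 and AT2G21720, and largest in AT3G57570, AT3G03890 and AT2G46630. In AT3G03890 samples 5 and 6 were the high ones, at 1.94 and 1.92 units against 0.766 to 0.908 in the other 4.

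The couple of samples 5 and 6 was most often the lowest. At 200 µE it held the lowest couple mean in 32 of the 53 genes (60.4%), against 50.8% of the 386 other probes, and at 20 µE in 29 (54.7%), against 61.9%. The couple of samples 1 and 2 held the highest mean in 26 of the 53 at 200 µE (49.1%, others 47.4%). The order of the 3 couples was the same at both light levels in 20 of the 53 genes (37.7%), against 40.4% of the others. These shares are descriptions, since genes of a sample are not independent.

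Within each couple, most of the 60 kept a higher mean at 200 µE: 57 in samples 1 and 2, 53 in samples 3 and 4, and 55 in samples 5 and 6. In the pool of 622 the shares were 14.8%, 13.7% and 20.9%. All 3 couples gave a positive log2 ratio in 47 genes (pool 8.04%), 2 couples in 11, and 1 couple in AT2G34450 and AT2G45990. The genes were chosen on the mean over these same couples, so the counts only describe the list. Nothing is read from their distance to the pool. The genes with a negative ratio in a couple included AT3G14890, at -0.58 in samples 3 and 4, and AT1G24040, at -0.27 there.

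**Figure D3:**
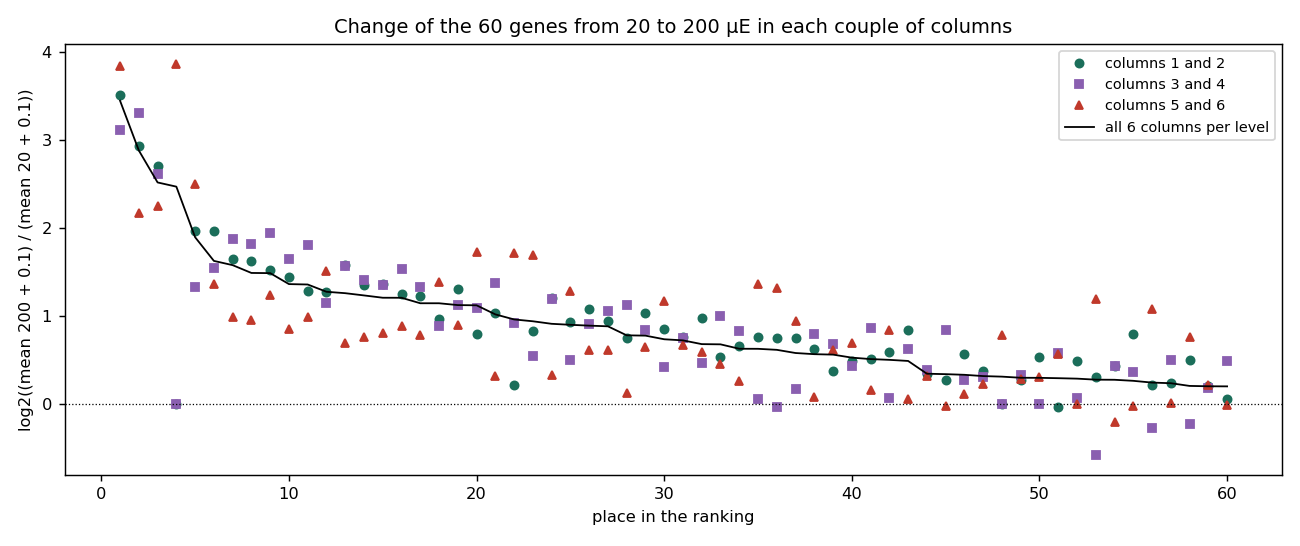
Log2 ratio of mean intensity, 200 µE over 20 µE with 0.1 unit added, for the 60 genes in order of the ratio over all samples (line), given separately for samples 1 and 2, 3 and 4, and 5 and 6. Points of 47 genes lie above 0 in all 3 couples; the couple of samples 5 and 6 alone carries AT2G34450.

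The same rule was also applied to 4 samples per light level, and the 60 genes so ranked were read in the couple left out. Of the genes chosen without samples 1 and 2, 55 of 60 were higher at 200 µE in that couple (median log2 ratio 0.76), where 14.8% of all probes to choose from were (median -0.72). Without samples 3 and 4 it was 44 of 60 (median 0.66; 13.3% and -0.83 for all), and without samples 5 and 6 it was 52 of 60 (median 0.63; 20.9% and -0.68). These choices shared 56, 51 and 54 genes with the 60 described here. The rule and the genes it sets aside were fixed with all samples known, and the labels do not say whether couples are independent plants. The reading is therefore a description and no independent check of the increase.

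Probes shared by several genes were not used to choose the list and give a second reading for 5 of the 60. They were looked up after the values of the list were known. Each was tested with limma over all 1445 features on quantile-normalised log2 intensity. Of these 5 probes, 1 rose, 1 was lower over the 12 samples only and 3 did not pass; of all 804 probes of several genes tested, 26.7% were called higher over the 12 samples and 13.9% over couple means, and 29.5% and 14.3% were called lower. Without normalisation 66.8% of the 804 were called lower, and 947 of all 1445 features were (median log2 change -1.30).

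The probe listing IAA31 with IAA20 and IAA30 rose. It measured 0.660 to 1.13 units at 20 µE and 1.77 to 3.07 at 200 µE, with all bright-light samples above all dim-light samples, samples 5 and 6 included. The log2 change was 1.81 ± 0.13 (SE over 12 samples, limma, adjusted p = 9.1e-07 over 12 samples and 0.0059 over couple means). The SEs of log2 changes here and below come from the 12-sample fit, which takes samples of a couple as independent. Over the 23 other settings tried the log2 change lay between 1.5 and 2.86, with limma adjusted p from 4.7e-09 to 0.018. These 3 genes are close relatives within the Aux/IAA family. The probe listing IAA30 and IAA20 without IAA31 was listed at 0 in all dim-light samples, with a mean of 0.00726 units at 200 µE.

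The other shared probes had lower means in bright light. The probe listing AT4G32340 with AT1G80133, AT1G80130 and AT5G20190 went from 1.45 ± 0.824 to 0.408 ± 0.164 units (log2 change -1.12 ± 0.38; limma, adjusted p = 0.026 over 12 samples but 0.18 over couple means). Over the 23 other settings the log2 change lay between -1.79 and -0.43, with adjusted p from 0.00049 to 0.217, the smallest change and the highest p under median centring. It lost the threshold without sample 1 at 20 µE (0.052) or sample 5 or 6 at 200 µE (0.057 and 0.0516), and without samples 5 and 6 of both levels (0.108). With couples compared pair by pair the limma adjusted p was 0.11. The own probe of AT4G32340 had means of 0.750 ± 0.465 and 0.920 ± 0.347 units.

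The probe listing PRA1.B3 with PRA1.B1 and PRA1.B2 measured 0.388 to 0.916 units at 20 µE and 0.106 to 0.386 at 200 µE, the reverse order of the own probe of PRA1.B3. After quantile normalisation its log2 change was -0.40 ± 0.25 (limma, adjusted p = 0.21; 0.0011 to 0.46 over the other settings). It passed as deposited (-1.61, adjusted p = 0.0011) and in a fit that pairs samples by number, with that number as a block (0.0096). With couples compared pair by pair it did not pass (0.17). Genes of this family are similar in sequence, and binding of either probe to transcripts of relatives was not tested. The probe listing AT2G38070 with OPS and AT5G01170 (0.733 ± 0.391 and 0.198 ± 0.0201 units; log2 change -0.55, limma, adjusted p = 0.15) did not pass, and passed as lower on deposited values (-1.77, adjusted p = 0.00019).

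The probe listing AT3G03890 with AT1G51560 and AT3G21140 was listed at 0 in 5 dim-light samples and measured 0.681 units in sample 2, against 0 in 5 bright-light samples and 0.00328 units in sample 5. Its log2 change of -0.83 (limma, adjusted p = 0.40) rests on that dim-light sample and was 0 without it. Without quantile normalisation it was called lower on deposited values (-3.13, limma, adjusted p = 0.0015). It was also called lower under median centring (-1.77, adjusted p = 0.034), where 30.1% of the 804 probes of several genes were. In both fits values at 0 stood at a floor set for each sample, so differences between floors enter these changes. AT2G34450, AT2G45990 and AT3G49740, listed at 0 throughout the dim-light samples, had log2 changes of -0.15, -1.55 and -0.94 without normalisation. Nothing is therefore read from the calls of this probe.

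**Figure D4:**
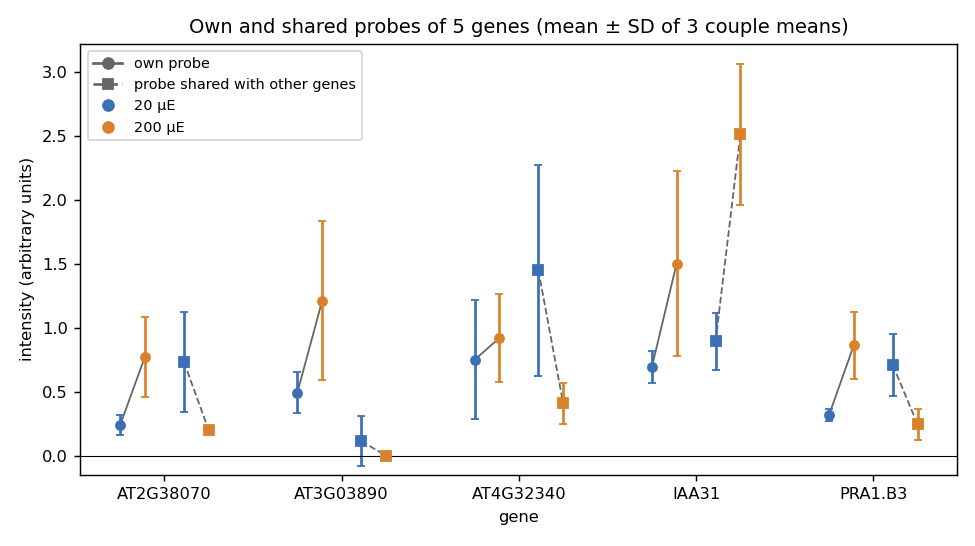
Mean intensity in arbitrary units of the own probe (circles, solid line) and of the probe shared with other genes (squares, dashed line) for 5 genes at 20 µE (blue) and 200 µE (orange); bars are the SD of 3 couple means. Both probes of IAA31 are higher at 200 µE, and the shared probes of the other 4 genes are lower, that of AT3G03890 through 1 dim-light sample.

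In the fit over all features, 54 of the 60 genes were called higher at 200 µE over 12 samples, where 25.5% of the 1445 features were (limma, adjusted p under 0.05), and 41 over couple means, where 12.9% were. The same contrast chose the genes, so nothing is read from these counts. With couples compared pair by pair it was again 41 of 60 (12.2% of all features). In all 3 fits 37 genes were called. The share of all features called in all 3 was not counted, so nothing is read from that number either. The 6 not called over 12 samples were AT2G34450, AT2G45990, AT3G49740, AT4G21770, AT4G17650 and AT4G32340. On the quantile-normalised scale, the median log2 change was 1.89 for the 60 and -0.07 for all features. The order differed from that in deposited units: AT3G07790 had the largest change, 5.33 ± 0.37 (SE), ahead of AT1G73120 (4.49 ± 0.32). This order depends on the scale: AT1G73120 was ahead when 0.1 unit was added and no floor set (3.92 against 3.17) and without normalisation (3.83 against 3.34), settings added after the values were seen.

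The 60 genes were spread over the genome. Chromosome 1 carried 16 of them, chromosome 2 carried 11, chromosome 3 carried 13, chromosome 4 carried 8 and chromosome 5 carried 12, which is 9.20%, 8.87%, 10%, 6.67% and 8.39% of the single-gene probes there. The nearest neighbours in the order of protein-coding genes were AT3G17550 and AT3G17600 (IAA31), 5 genes apart, and AT4G15840 and AT4G15910 (DI21), 7 genes apart. No 2 of the 60 were adjacent.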

How the data were processed

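The authors deposited 1 table of linear intensity in arbitrary units for 3439 probes and 12 samples. Their chemistry, background correction and scaling are not stated in the sources used here, and no depth applies to arrays, whose number limits the precision. Groups and replicate numbers came from the sample titles. The platform annotation listed 1 gene for 692 probes and several for 870, and 1877 probes are unnamed here. Of the 60 genes, 59 were found in the TAIR10.1 gene table. It holds no descriptions or sequences, so the planned grouping by function, promoter motifs and protein features was not done (56 of the 60 had no descriptive name, and the other 4 matched no class). Genes, lists and rules were chosen with earlier results of these data known.

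For the fit, values under a column's 1st percentile of positive values were raised to it, the log2 table of all probes was quantile-normalised, and 1445 listed features (116 at 0 in all samples left out) were tested with limma 3.58.1 in R 4.3.3, two-sided, Benjamini-Hochberg threshold 0.05. The fit was also run on simulated data with independent noise in each sample. Real samples of a couple deviated together, so that run is no check of the p-values given here. p-values measure only the spread between these samples, which may be technical. Over the 2573 probes above 0 in all samples, same-numbered samples of the light levels deviated together (correlations 0.143 to 0.648), and all 12 correlated best with their own number, and the numbers are treated as pairing the samples. Within groups, couples correlated at 0.248 to 0.824 and other samples at 0.0244 or less. All 60 genes could be named. Values by sample were given for the first 12, the 6 brightest at 200 µE, the 3 widest overlaps, those at the end of the list and the named genes; others were added after their values were seen. Alternatives were other normalisations, floors and pseudocounts, filters, the replicate block, couple means, and leaving out samples or couples.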

Additional observations from a re-analysis of the deposited data

Results flagged for a closer look

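Among 45 sets of 6 samples of the genes given sample by sample, 2 held a sample far from the other 5. A rate of 1 in 20 would give 2.25, but it takes the samples as independent. Samples of a couple deviated together, so nothing is read from this comparison. AT2G34450 measured 2.66 units in sample 6 at 200 µE and between 0 and 0.0742 in the others. PRA1.B6 measured 1.25 units in sample 6 at 20 µE and between 0.70 and 0.892 in the others.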

How the results depend on the processing

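Of the 60 genes, the rule kept 47 on quantile-normalised values and 50 to 59 under the other settings of pseudocount, averaging, scaling and brightness limit, and 55 to 58 when 1 sample was left out. AT1G13990, AT2G36480 and DI21 were among the 13 lost after quantile normalisation, and 46 genes were kept under both rescalings. Leaving out single samples lost 13 genes at least once, and 44 were kept without each couple. The 28 genes with separate groups became 48 after quantile normalisation and 53 with each column divided by its median. Rescaling raised the whole pool: 16.4% of it had a higher mean at 200 µE as deposited, 43.6% after quantile normalisation and 47.9% after median scaling. The share of all single-gene probes with separate groups was not counted on these scales. Whether the larger counts are particular to the 60 was therefore not tested, and nothing is read from them. The count ranged from 28 to 31 when 1 sample was left out. The genes' median log2 change of 1.89 was 0.84 without normalisation (all features -1.30), 2.20 under median centring (0.06) and 1.41 with a pseudocount of 0.1, and lay between 1.81 and 1.96 when 1 sample was left out. With the replicate number as a block 55 genes were called higher (28% of all features), against 54 without it, and the median of 1.89 was the same. Without normalisation 41 were called higher, where 112 of 1445 features were, against 369 in the main setting.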
